A study of Caenorhabditis elegans with 16 samples.

Results

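RNA sequencing of whole *Caenorhabditis elegans* in the final larval stage, L4, was used to compare animals that express a singly edited form of the transcription factor SKN-1, SKN-1t[NDNN], with wild type animals. The comparison takes 8 of the 16 samples of the series, the 4 labelled NDNN and the 4 labelled control, and all genes of the deposited count table. It asks which genes change when animals also express a shortened SKN-1 with a single change of the kind that sequence editing makes. The other 8 samples, 4 of SKN-1t[NNNN] and 4 of SKN-1t[DNDD], are used only to test where SKN-1t[NDNN] differs from forms with no change or with 3 changes. SKN-1t[NDNN] animals are strain NJL2492, with the genotype unc-119(ed3) III and the single-copy transgene mgTi42. The transgene is driven by the *rpl-28* promoter, which is active in all tissues, and encodes SKN-1A without its first part, including the transmembrane domain, with an N-terminal HA tag, a C-terminal GFP tag and an Asn to Asp substitution at 1 of 4 glycosylation sites. Wild type animals are strain N2, which has neither the transgene nor unc-119(ed3), and both groups keep the endogenous *skn-1* gene. Each form is represented by a single strain with a single insertion. Against the wild type, effects of the substitution, shortening, added expression, insertion, tags and *unc-119* background therefore cannot be told apart. SKN-1t[NNNN] animals (strain GR3105, mgTi21) and SKN-1t[DNDD] animals (strain NJL2494, mgTi41) also carry a transgene of this kind with unc-119(ed3).

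SKN-1 is the nematode relative of the mammalian NRF factors and activates genes of detoxification, glutathione synthesis and oxidative stress defence. Its SKN-1A isoform passes through the endoplasmic reticulum, where it is N-glycosylated. After release to the cytosol the glycanase PNG-1 removes the sugars, which turns the glycosylated Asn residues into Asp (sequence editing), and the protease DDI-1 cleaves the protein. SKN-1A processed in this way is known for raising the genes of the proteasome, the protease complex that degrades ubiquitin-tagged proteins, when proteasome activity is low.

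Between 28228441 and 30457636 reads per SKN-1t[NDNN] library and between 25968963 and 28694871 reads per wild type library were counted on genes. Levels are given in CPM, the reads of a gene per fixed number of library reads, after TMM scaling, in the order of replicates 1 to 4, and errors are SD (n = 4 each). Of 19122 genes in the table, 14310 had enough counts to be tested. The study's methods state that biological replicates came from separate populations of animals. Same-numbered samples of both groups correlated in their deviations from the group means and were fitted as pairs. Replicates 1 and 2 also correlated with each other across groups, as did replicates 3 and 4.

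RNA of *skn-1* (WBGene00004804, chromosome IV, 5651039 to 5660384; genome build WBcel235) was read first, since its count takes in reads of the endogenous gene and of the transgene alike. The RNA was at 288, 320.1, 257 and 265 CPM in SKN-1t[NDNN] animals, against 133, 127, 112 and 118 CPM in the wild type. All SKN-1t[NDNN] samples lay above all wild type samples, as the labels say. The log2 fold change was 1.29 (standard error 0.0970, adjusted p = 0.000705, edgeR quasi-likelihood test with Benjamini-Hochberg adjustment, used for every adjusted p below). *wdr-23*, which encodes the ubiquitin ligase receptor that directs SKN-1 to degradation and is a known SKN-1 target, was at 213, 269, 206 and 217 CPM in SKN-1t[NDNN] animals, against 62.5, 62.9, 59.6 and 56.8 CPM in the wild type. It rose by 1.99 on the log2 scale (standard error 0.107, adjusted p = 0.000239). The genes of the processing enzymes differed less. *ddi-1* averaged 65.8 ± 3.35 CPM in SKN-1t[NDNN] animals and 49.0 ± 2.58 CPM in the wild type (log2 fold change 0.52, adjusted p = 0.00512), below the 2-fold cutoff, and *png-1* averaged 30.8 ± 1.46 and 36.7 ± 2.91 CPM (log2 fold change -0.16, adjusted p = 0.236). Of 14 genes that regulate SKN-1, *skn-1* and *wdr-23* were the ones called. *unc-119*, which carries the ed3 mutation in the transgenic strain, averaged 15.5 ± 1.17 CPM in SKN-1t[NDNN] animals and 9.57 ± 0.358 CPM in the wild type (log2 fold change 0.79, adjusted p = 0.00298).

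Calls required a change of more than 2-fold and an adjusted p below 0.01. In SKN-1t[NDNN] animals 932 genes were up, 6.51% of those tested, and 536 were down, 3.75%. The samples of the groups did not overlap for 913 of the genes up and 493 of the genes down, which follows largely from calls made on the same samples. At a change of more than 1.5-fold and an adjusted p below 0.05, called the wider cutoff here, 15% of genes (2149) were up and 10.4% (1495) were down. The median log2 fold change of all genes tested was 0.070. Genes called up took 9.18% ± 1.12 of all reads in SKN-1t[NDNN] animals and 2.13% ± 0.411 in the wild type. Genes called down took 2.68% ± 0.475 in SKN-1t[NDNN] animals and 8.44% ± 1.72 in the wild type. The direction of these read shares is set by the calls. The number of calls depended on the libraries used. In the paired fits against the wild type, a library left out leaves its same-numbered partner with nothing to be compared with. The pair then drops out of the comparison, and the partner still enters the scaling and the filter. Here and below, results of these fits with 1 library left out therefore belong to pairs, not to single libraries. Why the pairs differed was not tested. Without SKN-1t[NDNN] replicate 4, 263 genes were up and 117 down, and without wild type replicate 4, 286 up and 123 down. There were 486 up and 251 down without SKN-1t[NDNN] replicate 2, 508 up and 313 down without wild type replicate 2, 590 up without SKN-1t[NDNN] replicate 1, and 327 down without wild type replicate 1. Counts of 880 up and 718 down were found without SKN-1t[NDNN] replicate 3. With no pairing and 1 library left out, counts ranged from 649 to 1029 up and from 370 to 692 down.

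**Figure D1:**
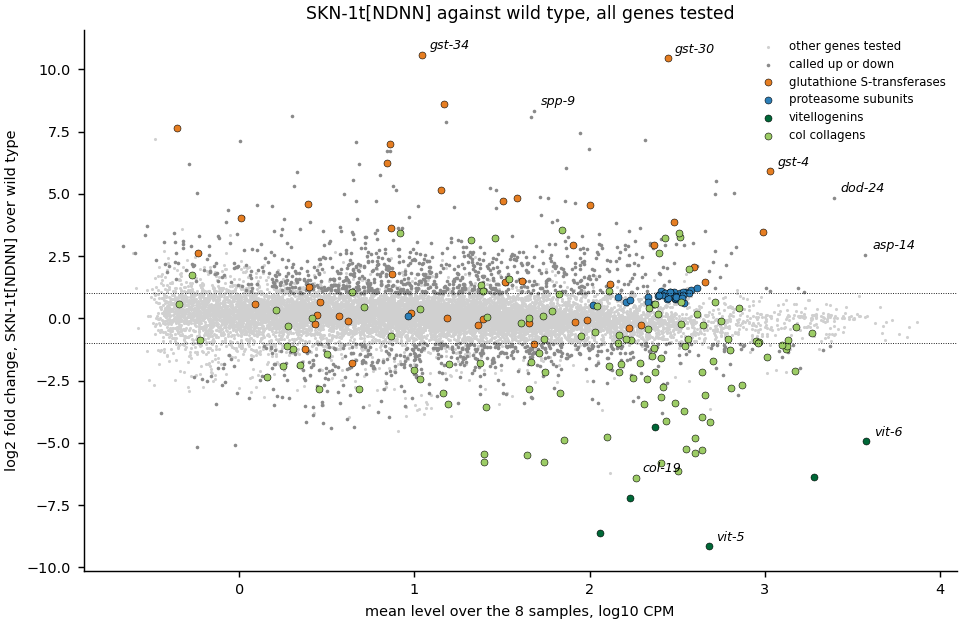
Change of each gene tested against its level. The x axis is log10 of the mean CPM over the 8 samples, the y axis is the log2 fold change of SKN-1t[NDNN] over wild type, dotted lines mark 2-fold, and coloured points are members of 4 families. Glutathione S-transferases such as gst-4 and gst-30 lie at the top, proteasome subunits form a narrow group near 2-fold up, and vitellogenins lie at the bottom.

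The largest increases included genes that were almost silent in the wild type. *sdz-8* (WBGene00008334, chromosome V, 11515086 to 11516191), named for its dependence on SKN-1 in early embryos, was at 459, 487, 365 and 338 CPM in SKN-1t[NDNN] animals, against 2.41, 3.09, 3.80 and 2.93 CPM in the wild type (log2 fold change 7.16, standard error 0.223, adjusted p = 5.06e-05). R05D8.7 (WBGene00019885, chromosome V, 2761819 to 2763208) was at 104, 108, 70.4 and 87.4 CPM in SKN-1t[NDNN] animals, against 0.249, 0.391, 0.334 and 0.418 CPM in the wild type. Its log2 fold change was 8.11 (standard error 0.185, adjusted p = 3.54e-05). W06H8.2 averaged 175 ± 24.4 CPM in SKN-1t[NDNN] animals and 1.07 ± 0.206 CPM in the wild type (log2 fold change 7.43, adjusted p = 4.32e-05). For each of the 3 genes the lowest SKN-1t[NDNN] sample was far above the highest wild type sample.

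Markers of stage and tissue also differed between the groups, and these values stand beside every result below. The vitellogenins are yolk proteins that the intestine makes in adult hermaphrodites. All 6 fell in SKN-1t[NDNN] animals, with a median log2 fold change of -6.80. *vit-6* (WBGene00006930, chromosome IV, 8261157 to 8266459) was at 120.0, 86.6, 575 and 226 CPM in SKN-1t[NDNN] animals, against 2693, 6593, 13009.8 and 7100.1 CPM in the wild type, a log2 fold change of -4.95 with a standard error of 0.351 (adjusted p = 0.000610). *vit-5* was at 0.0675, 0.129, 39.3 and 0.731 CPM in SKN-1t[NDNN] animals, against 162, 551, 2117 and 971 CPM in the wild type. SKN-1t[NDNN] replicate 3 had the most vitellogenin RNA of its group and wild type replicate 3 the most of the wild type, and the groups did not overlap. The log2 fold change of *vit-5* was -9.15 with pairing (adjusted p = 0.00289) and its adjusted p without pairing was 0.0284. The adult collagens *col-19* and *col-7* were called down with pairing (adjusted p = 0.00610 and 0.00275) and not without it (adjusted p = 0.0479 and 0.0623), and their summed level was 1.05, 0.258, 62.2 and 3.16 CPM in SKN-1t[NDNN] animals, against 90.8, 286, 773 and 447 CPM in the wild type. With 1 library left out, calls were lost, those of *vit-2* (adjusted p = 0.0140), *vit-3* (adjusted p = 0.0130), *vit-4* (adjusted p = 0.0103), *vit-5* (adjusted p = 0.0215) and *col-19* (adjusted p = 0.0398) without SKN-1t[NDNN] replicate 4 and of *col-7* (adjusted p = 0.0124) without SKN-1t[NDNN] replicate 2. The number of vitellogenins called down was 2 without SKN-1t[NDNN] replicate 4, 3 without wild type replicate 4 and 4 to 6 without any other library.

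Genes of the moult, in which the old cuticle is shed and a new one made, were mostly higher. Of 7 moult markers 4 rose and none fell at 2-fold. At the wider cutoff 5 were up and 1 was down, with a log2 fold change of -0.95. The summed level of the 7 was 3594, 4249, 2709.5 and 3702 CPM in SKN-1t[NDNN] animals, against 1606, 810.0, 484 and 789 CPM in the wild type. *noah-1*, which encodes a protein of the apical extracellular matrix, was at 1276, 1587, 737 and 1108 CPM in SKN-1t[NDNN] animals, against 338, 149.7, 99.2 and 156 CPM in the wild type (log2 fold change 2.86, adjusted p = 0.00101). *mlt-11*, the gene of a secreted protease inhibitor, rose by 2.63, *nas-37*, a metalloprotease gene needed to shed the cuticle, by 1.69, and *ptr-4*, a patched-related gene, by 1.82 on the log2 scale. Moult markers were lowest in replicate 3 of each group. Without SKN-1t[NDNN] replicate 4 or wild type replicate 4 none of the 7 was called, with adjusted p values of up to 0.0104 for *noah-1*, 0.0117 for *mlt-11*, 0.0119 for *nas-37* and 0.0353 for *ptr-4*. With 1 library left out and no pairing 2 to 5 were called, fewest without wild type replicate 2 or 4.

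Epidermal markers were higher and intestinal markers lower in SKN-1t[NDNN] animals. Of 4 epidermal markers 3 rose, and their summed level was 414, 441, 288 and 339.5 CPM in SKN-1t[NDNN] animals, against 119.4, 70.7, 60.8 and 80.1 CPM in the wild type. *dpy-7*, a collagen gene of the epidermis, was at 317, 335, 219 and 267 CPM in SKN-1t[NDNN] animals, against 75.0, 37.3, 20.9 and 44.5 CPM in the wild type (log2 fold change 2.90, standard error 0.243, adjusted p = 0.000886). Of 7 intestinal markers 3 fell, all 7 had negative log2 fold changes, and their summed level was 3929, 3977, 3710.4 and 3874 CPM in SKN-1t[NDNN] animals, against 5439, 6843, 7627 and 6275 CPM in the wild type. *ges-1*, the gut esterase gene, was at 39.2, 30.3, 37.4 and 45.5 CPM in SKN-1t[NDNN] animals, against 109, 127, 113 and 111 CPM in the wild type, a log2 fold change of -1.51 (adjusted p = 0.00111). None of 8 neuronal, 7 germline, 10 oocyte and 29 major sperm protein genes was called, although the summed germline markers ranged from 76.0 to 378 CPM in SKN-1t[NDNN] animals and from 51.4 to 175 CPM in the wild type. Of 5 body wall muscle markers 1 rose, *hlh-1*, a myogenic factor gene (log2 fold change 1.04, adjusted p = 0.00307, and 0.0185 without SKN-1t[NDNN] replicate 4, where it was not called), and their summed level was 2899, 3060.4, 2269 and 3984 CPM in SKN-1t[NDNN] animals, against 2183, 2517, 1969.9 and 2299 CPM in the wild type, ranges that overlap. None of 5 pharynx markers was called at 2-fold and 2 were down at the wider cutoff, with summed levels of 22.001, 19.9, 76.6 and 29.6 CPM in SKN-1t[NDNN] animals, against 45.2, 68.9, 115 and 66.8 CPM in the wild type, which overlap. In RNA from whole animals, fewer cells of a type and less RNA per cell cannot be told apart. The part of stage in the results that follow was not tested. With both libraries numbered 3 left out, an alternative added once the data had been seen, 883 genes were up and 707 down, and all 6 vitellogenins were still down.

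**Figure D2:**
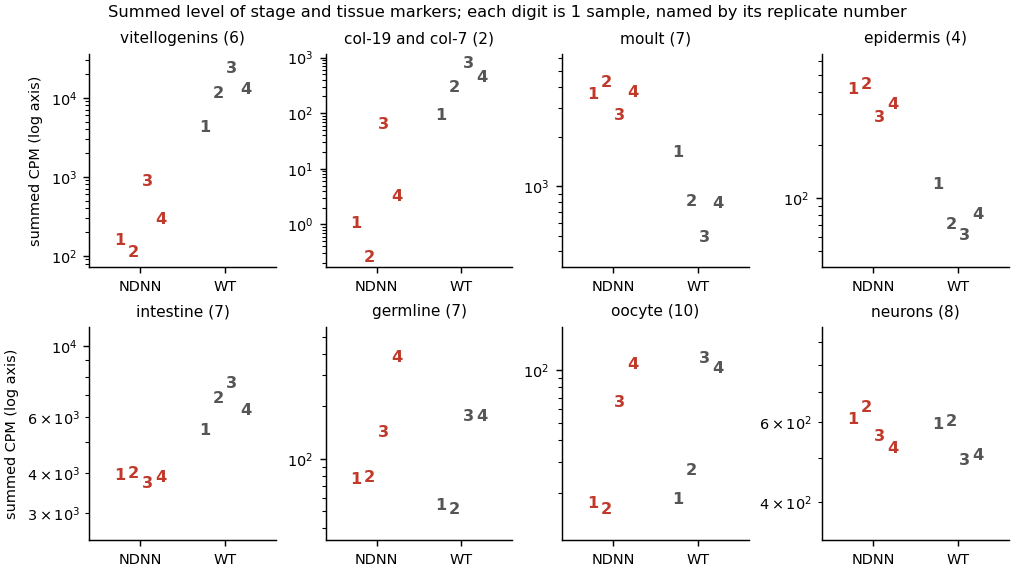
Summed CPM of stage and tissue markers in each sample (log axis), SKN-1t[NDNN] on the left and wild type on the right of each panel, with each digit placed at the value of the replicate of that number and the number of genes in parentheses. Vitellogenins and the adult collagens are lower, and moult and epidermal markers higher, in all 4 SKN-1t[NDNN] samples, while neuronal markers overlap.

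Glutathione S-transferases join glutathione to reactive compounds. Among classes of gene symbols with at least 10 tested members, the *gst* class had the largest share called up, 25 of 39. In a larger list that also holds *gstk-1*, 26 of 44 tested members rose and 1 fell, against 6.51% and 3.75% of all genes. The median log2 fold change of the members of this list was 1.49. Their summed level was 8542, 9213, 7623 and 7628 CPM in SKN-1t[NDNN] animals, against 1642, 1759, 1603 and 1789 CPM in the wild type. With 1 library left out 21 to 25 rose. *gst-4* (WBGene00001752, chromosome IV, 10142225 to 10143099), the usual reporter gene of SKN-1 activity, was at 2234, 2371, 2008 and 1821 CPM in SKN-1t[NDNN] animals, against 32.3, 36.99, 34.7 and 46.5 CPM in the wild type. Its level was high and even in SKN-1t[NDNN] animals, and the log2 fold change was 5.91 (standard error 0.190, adjusted p = 5.06e-05). *gst-30* (WBGene00001778, chromosome II, 4933883 to 4935054) was nearly silent in the wild type, at 0.0415, 0.130, 1.21 and 0.418 CPM, and was at 636, 702, 452 and 439 CPM in SKN-1t[NDNN] animals (log2 fold change 10.46, standard error 0.768, adjusted p = 0.000675). *gst-1* averaged 1778 ± 389.5 CPM in SKN-1t[NDNN] animals and 166 ± 8.41 CPM in the wild type (log2 fold change 3.49, adjusted p = 9.39e-05).

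*gst-25* was at 37.6, 39.5, 18.3 and 22.6 CPM in SKN-1t[NDNN] animals, against 0.0415, 0, 0.125 and 0.114 CPM in the wild type (log2 fold change 8.63, adjusted p = 0.000226). *gst-34* was at 29.3, 40.0, 14.96 and 4.59 CPM in SKN-1t[NDNN] animals and had 1 read in the 4 wild type libraries together. The ratio of the groups was 2161, with a 95% interval from counting alone of 388 to 85351. It varied more between SKN-1t[NDNN] samples than *gst-4* did, with replicate 4 lowest. The member that fell was *gstk-1*, the gene of a kappa-class enzyme, at 30.9, 22.2, 32.4 and 38.2 CPM in SKN-1t[NDNN] animals and 61.6, 69.8, 58.9 and 73.4 CPM in the wild type (log2 fold change -1.02, adjusted p = 0.00401, and 0.0215 without SKN-1t[NDNN] replicate 4, where it was not called). Near-identical copies within the family could share reads, and how the authors assigned such reads is not given in the sources used here.

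Glutathione itself is made in 2 steps, and the first is carried out by glutamate-cysteine ligase, the product of *gcs-1* (WBGene00001527, chromosome II, 9035562 to 9038301). *gcs-1* was at 540.4, 614, 395 and 444 CPM in SKN-1t[NDNN] animals, against 118, 117, 97.9 and 113 CPM in the wild type, with no overlap (log2 fold change 2.23, standard error 0.117, adjusted p = 0.000227). Of 22 tested genes of glutathione and thioredoxin, *gcs-1* rose and *trx-3*, an intestinal thioredoxin gene, fell (26.6 ± 14.9 CPM in SKN-1t[NDNN] animals and 102 ± 33.5 CPM in the wild type, log2 fold change -1.92, adjusted p = 0.00544). At the wider cutoff 7 rose. Of 11 superoxide dismutase, catalase and peroxiredoxin genes 2 rose and none fell. *prdx-2*, which encodes a peroxiredoxin that reduces hydrogen peroxide, was at 2204, 2101, 2085 and 2104 CPM in SKN-1t[NDNN] animals, against 928, 1089, 894 and 983 CPM in the wild type (log2 fold change 1.22, adjusted p = 0.000850). *ctl-3*, a catalase gene, averaged 5.33 ± 0.570 and 0.753 ± 0.268 CPM in the same groups (log2 fold change 2.93, adjusted p = 0.00102).

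Among 17 tested genes of cysteine and hydrogen sulfide metabolism, 2 rose and 1 fell. *cysl-2*, a relative of cysteine synthase, was at 160.4, 186, 91.5 and 122 CPM in SKN-1t[NDNN] animals, against 6.19, 5.17, 3.17 and 8.41 CPM in the wild type (log2 fold change 4.72, standard error 0.244, adjusted p = 0.000226). *cbl-1*, which resembles cystathionine beta-lyase, averaged 163 ± 36.5 CPM in SKN-1t[NDNN] animals and 17.8 ± 5.39 CPM in the wild type (log2 fold change 3.30, adjusted p = 0.000847). *cth-1*, a cystathionine gamma-lyase gene, averaged 36.7 ± 9.06 and 98.5 ± 30.5 CPM in these groups and fell by 1.31 on the log2 scale (adjusted p = 0.000847). None of 6 genes of the pentose phosphate pathway and NADPH supply was called, and the metallothionein gene *mtl-2* fell by 1.08 on the log2 scale (adjusted p = 0.00123). Leaving out 1 library ended the calls of *trx-3* (adjusted p = 0.0328), *prdx-2* (adjusted p = 0.0103), *ctl-3* (adjusted p = 0.0104) and *mtl-2* (adjusted p = 0.0133) without SKN-1t[NDNN] replicate 4.

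Other detoxification families were called in both directions, beside 6.51% up and 3.75% down among all genes. Of 60 tested UDP-glucuronosyltransferase genes, whose products attach sugars to foreign compounds, 11 rose and 11 fell (18.3% each). Their median log2 fold change was -0.34. Without SKN-1t[NDNN] replicate 4 or wild type replicate 4, 7 rose and 4 fell. *ugt-10* was at 12.2, 13.7, 13.4 and 18.6 CPM in SKN-1t[NDNN] animals, against 0.0831, 0.0435, 0.292 and 0.152 CPM in the wild type (log2 fold change 6.72, adjusted p = 0.000234). *ugt-30* was at 1.96, 1.67, 5.19 and 3.39 CPM in SKN-1t[NDNN] animals, against 20.6, 31.9, 41.9 and 34.5 CPM in the wild type, and fell by 3.39 on the log2 scale (adjusted p = 0.000486). *ugt-47* averaged 64.998 ± 13.3 CPM in SKN-1t[NDNN] animals and 360.5 ± 87.0 CPM in the wild type (log2 fold change -2.37, adjusted p = 0.000605). Members of the family were thus called in both directions with groups that did not overlap. *ugt-35* averaged 3.99 ± 2.22 CPM in SKN-1t[NDNN] animals and had 1 read in the 4 wild type libraries, a ratio of 389 (95% interval from counting alone 69.8 to 15359).

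Of 57 tested cytochrome P450 genes, whose products oxidise foreign compounds, 4 rose and 10 fell (7.02% and 17.5%). The share that rose was near the 6.51% of all genes, and the share that fell was above 3.75%. *cyp-13B1* was at 27.2, 27.9, 16.2 and 36.01 CPM in SKN-1t[NDNN] animals, against 6.27, 3.48, 2.80 and 3.69 CPM in the wild type (log2 fold change 2.82, adjusted p = 0.000758). *cyp-35A5* was at 1.82, 1.80, 4.50 and 5.62 CPM in SKN-1t[NDNN] animals, against 17.03, 16.95, 20.9 and 28.4 CPM in the wild type, and fell by 2.63 on the log2 scale (adjusted p = 0.000933). *cyp-33C5* fell by 1.97 (adjusted p = 0.00105). Short-chain dehydrogenases were split as well, with 7 up and 6 down of 29 (24.1% and 20.7%). *dhs-8* averaged 52.5 ± 20.8 CPM in SKN-1t[NDNN] animals and 1.41 ± 0.341 CPM in the wild type (log2 fold change 5.22, adjusted p = 0.000463), and *dhs-26* averaged 0.622 ± 0.286 and 6.88 ± 1.87 CPM in these groups (log2 fold change -3.40, adjusted p = 0.000919). Of 12 aldehyde dehydrogenase genes 3 rose and 1 fell (25% and 8.33%). *alh-6*, which acts in the breakdown of proline in mitochondria, rose by 1.58 on the log2 scale (adjusted p = 0.000928, and 0.0103 without SKN-1t[NDNN] replicate 4, where it was not called), and *alh-5* rose by 1.11 (adjusted p = 0.000850). Of 48 tested ABC transporter genes, whose products pump compounds across membranes, 6 rose and 4 fell (12.5% and 8.33%). *mrp-7*, of the multidrug resistance class, was at 120.1, 138, 112 and 132 CPM in SKN-1t[NDNN] animals, against 25.3, 31.7, 41.4 and 38.3 CPM in the wild type (log2 fold change 1.99, adjusted p = 0.000783).

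**Figure D3:**
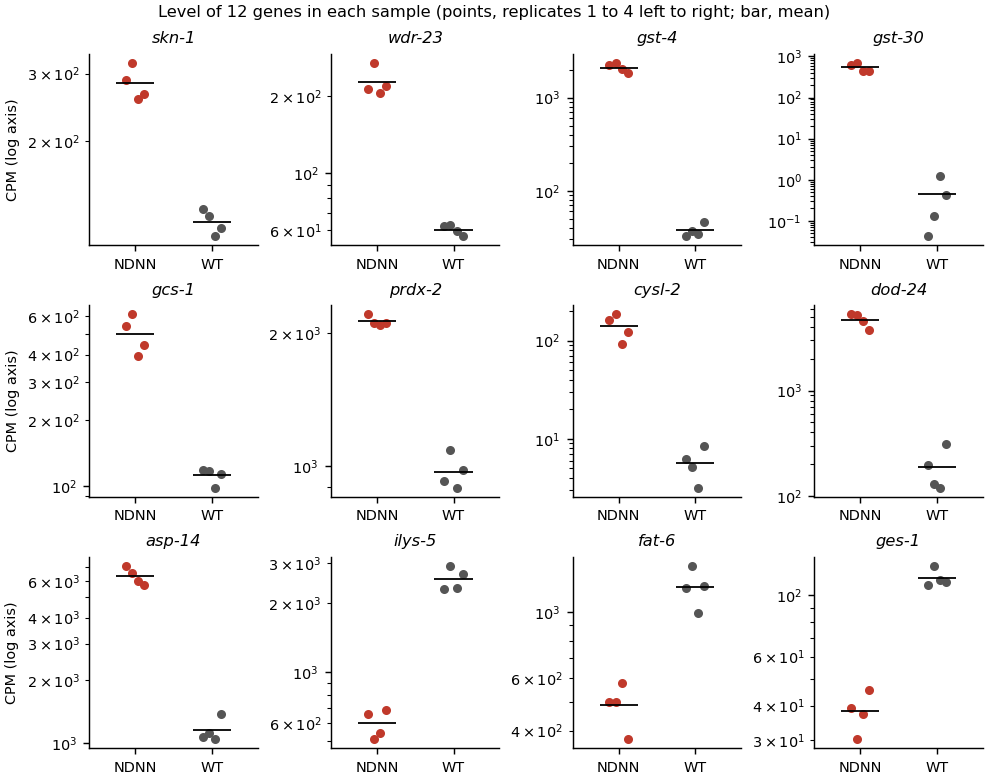
CPM of 12 genes in each sample (log axis), SKN-1t[NDNN] on the left and wild type on the right, with points for replicates 1 to 4 and a bar at the mean. The groups do not overlap for any of the 12, with 9 genes higher and ilys-5, fat-6 and ges-1 lower in SKN-1t[NDNN] animals.

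The proteasome consists of a 20S core of alpha and beta subunits and a 19S cap of ATPases and other subunits. Its genes rose together by a modest amount in SKN-1t[NDNN] animals. Of 34 subunit genes 31 were up at the wider cutoff, against 15% of all genes, and 11 passed the 2-fold cutoff, against 6.51%, with a median log2 fold change of 0.88 and no gene down. With 1 library left out 29 to 31 were up at the wider cutoff. The calls at 2-fold were less firm, since the values lie at the cutoff: 1 of the 11, *pas-5*, held under all 17 alternatives run on single genes. The samples of the groups did not overlap for 33 of the 34 genes. The share of all tested genes without overlap was not counted, so this number has no background to be read against.

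In the core, all 7 alpha subunit genes were up at the wider cutoff, and *pas-2*, *pas-3*, *pas-5* and *pas-7* at 2-fold. *pas-5* (WBGene00003926, chromosome I, 10566350 to 10567300) was at 599, 558, 592 and 517 CPM in SKN-1t[NDNN] animals, against 269, 269, 236 and 258 CPM in the wild type (log2 fold change 1.23, standard error 0.104, adjusted p = 0.000898). *pas-6* had the smallest change of the alpha subunits, 0.79. All 7 beta subunit genes, 3 of which encode the proteolytic sites, were up at the wider cutoff, and *pbs-3*, *pbs-4* and *pbs-6* at 2-fold. *pbs-5*, which encodes a catalytic subunit, was at 465, 439, 391 and 450.1 CPM in SKN-1t[NDNN] animals, against 244, 287, 212 and 241 CPM in the wild type (log2 fold change 0.92, standard error 0.103, adjusted p = 0.00172). The SKN-1t[NDNN] samples of both genes lay above all wild type samples.

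In the cap, 5 of 6 ATPase genes, whose products unfold substrates, were up at the wider cutoff and *rpt-4* at 2-fold. *rpt-4* was at 505, 487, 442 and 437 CPM in SKN-1t[NDNN] animals, against 248, 255, 207 and 237 CPM in the wild type (log2 fold change 1.08, adjusted p = 0.00101), while *rpt-6* had a log2 fold change of 0.58 (adjusted p = 0.00651), just under 1.5-fold. Of 14 non-ATPase genes 12 were up at the wider cutoff, and *rpn-7*, *rpn-8* and *rpn-11* at 2-fold. *rpn-11*, which encodes the deubiquitinase of the cap, was at 372, 352, 293 and 337 CPM in SKN-1t[NDNN] animals, against 173, 192, 145 and 171 CPM in the wild type (log2 fold change 1.09, standard error 0.0947, adjusted p = 0.000937). *dss-1* had a log2 fold change of 0.53 (adjusted p = 0.00684), and *rpn-6.2*, a paralog of *rpn-6.1* used in sperm, of 0.092 (adjusted p = 0.665), at 7.46, 5.86, 10.1 and 13.96 CPM in SKN-1t[NDNN] animals, against 6.77, 7.65, 10.4 and 11.5 CPM in the wild type. *rpn-6.2* was the single subunit gene whose groups overlapped. The other 10 calls at 2-fold were each lost in at least 1 fit with a library left out, at adjusted p values of up to 0.0119 (*pas-3*, without SKN-1t[NDNN] replicate 4).

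The proteasome genes also differed between SKN-1t[NDNN] animals and those with the unchanged form. In a fit of all 16 samples, 33 of the 34 were higher in SKN-1t[NDNN] animals than in those with SKN-1t[NNNN] at the wider cutoff, against 1.02% of all 14850 genes tested in that fit. The median log2 difference was 1.15 for the alpha subunits, 1.15 for the beta subunits, 1.05 for the cap ATPases and 0.88 for the other cap subunits. Part of this difference lies below the wild type: the SKN-1t[NNNN] mean was under the wild type mean for 33 of the 34 genes, with median log2 fold changes of SKN-1t[NNNN] over wild type of -0.25, -0.37, -0.24 and -0.20 for the 4 groups of subunits in that order. *pas-5* averaged 566 ± 37.6 CPM in SKN-1t[NDNN] animals and 217 ± 17.8 CPM in those with SKN-1t[NNNN] (log2 difference 1.39, standard error 0.117, adjusted p = 2.50e-05), and *rpn-6.2* was the exception (-0.23, adjusted p = 0.583). Against SKN-1t[DNDD] animals, 31 of the 34 were lower at an adjusted p below 0.05, against 14.8% of all genes. With the cutoff of 1.5-fold added 4 of the 34 were lower, a share near the 12.6% of all genes. *pas-5* averaged 862 ± 175 CPM in SKN-1t[DNDD] animals (log2 difference -0.59, standard error 0.116, adjusted p = 0.00701). The mean of all 34 genes in SKN-1t[NDNN] animals lay between the wild type mean and the SKN-1t[DNDD] mean.

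**Figure D4:**
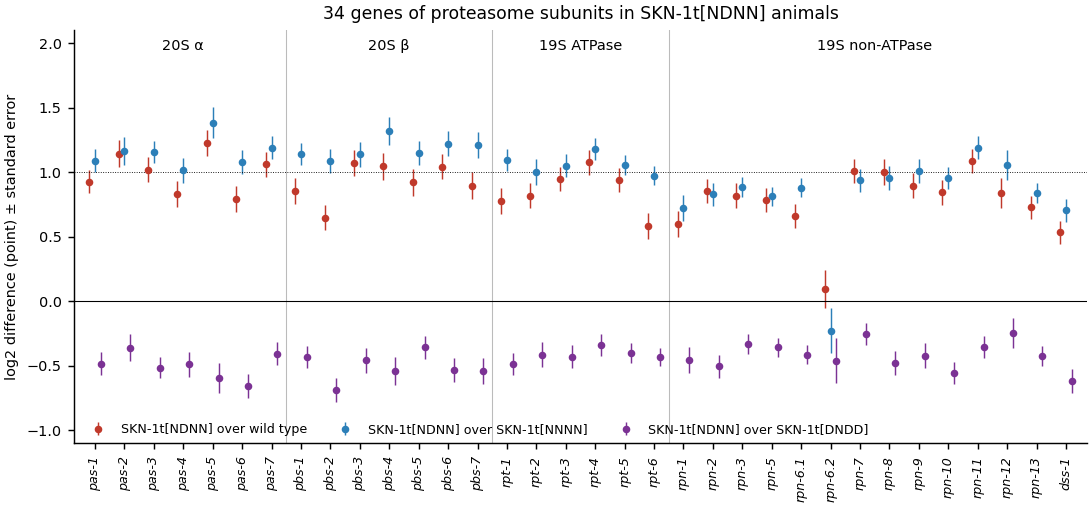
Log2 difference (point) and standard error (bar) of each proteasome subunit gene in SKN-1t[NDNN] animals, relative to the wild type (red), SKN-1t[NNNN] (blue) and SKN-1t[DNDD] (purple). All points are above 0 relative to the wild type, by up to 1.23, with rpn-6.2 lowest at 0.092. All genes except rpn-6.2 are higher than in SKN-1t[NNNN] animals, by up to 1.39, and all points are below 0 relative to SKN-1t[DNDD].

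Some partners and neighbours of proteasome genes were also up. Of 11 genes of ubiquitin shuttles and proteasome partners none passed 2-fold and 6 were up at the wider cutoff, with a median log2 fold change of 0.66, and 8 were higher than in SKN-1t[NNNN] animals. Of 9 genes that share an operon or a promoter with a proteasome-related gene, 2 were up at 2-fold and all 9 at the wider cutoff, with a median of 0.83. Those 9 were chosen with earlier results of these samples known, so their direction is not independent evidence. D1054.3 was at 84.0, 81.2, 75.5 and 63.97 CPM in SKN-1t[NDNN] animals, against 36.5, 36.1, 38.1 and 39.7 CPM in the wild type (log2 fold change 1.10, adjusted p = 0.00141), and was not called without wild type replicate 2 (adjusted p = 0.01005). None of 81 cytosolic ribosomal protein genes, 67 mitochondrial ribosomal protein genes, 13 cytosolic heat shock protein genes, 13 genes of endoplasmic reticulum chaperones and sensors and 29 autophagy genes passed 2-fold, and between 0 and 2 genes of each list were up at the wider cutoff. Other lists of protein turnover had calls, beside 6.51% up and 3.75% down among all genes. F-box proteins, adaptors of ubiquitin ligases, had 7 up and 1 down of 124 (5.65% and 0.806%). MATH and BTB proteins, which include adaptors of other ubiquitin ligases, had 1 up and 1 down of 58 (1.72% each). These shares were below those of all genes. Skp1-related proteins had 1 down of 11 (9.09%). The vacuolar ATPase, which acidifies lysosomes, had 2 up of 20 (10%), but 3 of the 20 had positive log2 fold changes and the median was -0.33. Its summed level was 8820 to 9765 CPM in SKN-1t[NDNN] animals and 11024 to 13698 CPM in the wild type.

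Lysosomal and secreted proteases of the gut were mostly lower. Of 10 tested aspartyl protease genes 1 rose and 2 fell, and 8 were down at the wider cutoff. *asp-14*, the member that rose, also had the largest gain in CPM of any gene called: it was at 7102, 6513, 5966 and 5749.6 CPM in SKN-1t[NDNN] animals, against 1066, 1119, 1044 and 1374 CPM in the wild type (log2 fold change 2.56, standard error 0.137, adjusted p = 0.000239). *asp-2* averaged 1406 ± 126 and 3273 ± 314 CPM in these groups (log2 fold change -1.13, adjusted p = 0.00166). Of 6 cathepsin B-like genes 3 fell and none rose. *cpr-1* was at 23.8, 25.4, 34.1 and 71.3 CPM in SKN-1t[NDNN] animals, against 358, 461, 277 and 266 CPM in the wild type (log2 fold change -3.17, adjusted p = 0.00265), and *cpr-6* averaged 1234 ± 332 and 3086 ± 437 CPM in these groups (log2 fold change -1.26, adjusted p = 0.00891). Intestinal markers were lower in the same samples, as given above, and their part in these values was not tested. The calls did not hold in every fit with 1 library left out, as shown by those of *asp-2* (adjusted p = 0.0155) without SKN-1t[NDNN] replicate 4 and of *cpr-1* (adjusted p = 0.0139) and *cpr-6* (adjusted p = 0.0405) without wild type replicate 1.

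Genes of immunity changed in both directions, beside 6.51% up and 3.75% down among all genes. Of 31 lysozyme and saposin-like genes, whose products attack bacteria, 3 rose and 9 fell. *spp-9*, a saposin-like gene, was at 88.9, 76.2, 133 and 85.7 CPM in SKN-1t[NDNN] animals, against 0.291, 0.217, 0.209 and 0.495 CPM in the wild type (log2 fold change 8.34, standard error 0.272, adjusted p = 5.16e-05). *spp-12* averaged 12.5 ± 4.47 CPM in SKN-1t[NDNN] animals and 0.243 ± 0.130 CPM in the wild type (log2 fold change 5.74, adjusted p = 0.000239). *ilys-5*, the gene of an invertebrate-type lysozyme, was at 658, 511, 544 and 682 CPM in SKN-1t[NDNN] animals, against 2312, 2921, 2338 and 2689 CPM in the wild type, and fell by 2.01 on the log2 scale (adjusted p = 0.000590). Without SKN-1t[NDNN] replicate 4 or wild type replicate 4, 4 genes of the list were called down, against up to 13 with other libraries left out.

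Of 104 tested C-type lectin genes 11 rose and 20 fell, but 5 fell without SKN-1t[NDNN] replicate 4 or wild type replicate 4, 9 without wild type replicate 1, 12 without SKN-1t[NDNN] replicate 1 or 2 and 13 without wild type replicate 2. *clec-3* was at 1179, 1131, 961 and 838 CPM in SKN-1t[NDNN] animals, against 27.0, 24.1, 14.7 and 33.9 CPM in the wild type (log2 fold change 5.50, adjusted p = 0.000172). *clec-68* was at 30.8, 33.5, 30.5 and 26.4 CPM in SKN-1t[NDNN] animals, against 0.166, 0.261, 0.0417 and 0.0761 CPM in the wild type (log2 fold change 7.88, adjusted p = 7.30e-05). Both were higher in every SKN-1t[NDNN] sample. *dod-24*, a gene of the innate immune response first found downstream of the factor DAF-16, was at 5334, 5256, 4589.9 and 3796 CPM in SKN-1t[NDNN] animals, against 197, 129.6, 118.9 and 309 CPM in the wild type (log2 fold change 4.85, standard error 0.342, adjusted p = 0.000610). *dod-17* averaged 831 ± 183 CPM in SKN-1t[NDNN] animals and 77.5 ± 4.97 CPM in the wild type (log2 fold change 3.49, adjusted p = 0.000144), and F55G11.2 averaged 1288 ± 138 and 42.4 ± 11.7 CPM in these groups (log2 fold change 5.05, adjusted p = 8.38e-05). These 3 genes lie on chromosome IV.

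Genes of lipid metabolism were called in both directions, beside 6.51% up and 3.75% down among all genes. Of 16 tested fatty acid desaturase and elongase genes 3 fell and none rose. *fat-6*, which encodes a stearoyl-CoA desaturase that makes oleic acid, was at 498, 499, 579 and 374 CPM in SKN-1t[NDNN] animals, against 1197, 1429, 992 and 1222 CPM in the wild type (log2 fold change -1.23, adjusted p = 0.00327). *fat-7*, of the same function, averaged 225 ± 44.2 and 497 ± 28.4 CPM in these groups (log2 fold change -1.07, adjusted p = 0.00216). Of 59 genes of acyl-CoA synthesis and beta-oxidation 2 rose and 3 fell (3.39% and 5.08%), against 6.51% and 3.75% of all genes, while 21 were down and 4 up at the wider cutoff, against 10.4% and 15% of all genes. *acs-3*, an acyl-CoA synthetase gene, averaged 32.9 ± 4.83 CPM in SKN-1t[NDNN] animals and 7.74 ± 3.26 CPM in the wild type (log2 fold change 2.25, adjusted p = 0.00100). *acox-3*, an acyl-CoA oxidase gene, was at 69.99, 64.03, 92.7 and 88.4 CPM in SKN-1t[NDNN] animals, against 209, 217, 219 and 225 CPM in the wild type (log2 fold change -1.39, adjusted p = 0.000933), and *dhs-28*, of peroxisomal beta-oxidation, fell by 1.14 on the log2 scale (adjusted p = 0.00105). Of 9 lipid-binding protein genes *lbp-8* rose by 1.80 on the log2 scale (adjusted p = 0.00118) and *lbp-5* fell by 1.88 (adjusted p = 0.000748). Of 7 lysosomal lipase genes 2 rose and 1 fell, with *lipl-6* averaging 18.6 ± 4.44 CPM in SKN-1t[NDNN] animals and 5.77 ± 3.52 CPM in the wild type (log2 fold change 1.91, adjusted p = 0.00462). Leaving out 1 library ended the calls of *fat-6* (adjusted p = 0.0213), *fat-7* (adjusted p = 0.0151), *dhs-28* (adjusted p = 0.0111), *acs-3* (adjusted p = 0.0104), *lbp-8* (adjusted p = 0.0119) and *lipl-6* (adjusted p = 0.0286) without SKN-1t[NDNN] replicate 4.

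Amino acid transporter genes mostly rose among those called, and osmolyte genes were called in both directions. Of 9 genes of amino acid transporter light chains 4 rose and 1 fell. *aat-2* was at 454, 721, 429 and 227 CPM in SKN-1t[NDNN] animals, against 48.9, 41.9, 67.5 and 43.9 CPM in the wild type (log2 fold change 3.17, standard error 0.306, adjusted p = 0.00115), with replicate 4 the lowest of its group. *sams-1*, which encodes the synthase of the methyl donor S-adenosylmethionine, averaged 2245 ± 517 CPM in SKN-1t[NDNN] animals and 1115 ± 116 CPM in the wild type (log2 fold change 1.08, adjusted p = 0.00216). Of 10 genes of osmolyte synthesis 1 rose and 2 fell, and 5 were down at the wider cutoff, with a median log2 fold change of -0.58. *gpdh-1*, a glycerol-3-phosphate dehydrogenase gene that is induced by osmotic stress, was at 11.6, 9.46, 17.6 and 17.8 CPM in SKN-1t[NDNN] animals, against 61.2, 66.8, 61.4 and 65.8 CPM in the wild type, and fell by 2.13 on the log2 scale (adjusted p = 0.00100). *tps-1*, a trehalose synthase gene, rose by 1.07 (adjusted p = 0.00487). None of 50 genes of the respiratory chain and ATP synthase encoded in the nucleus passed either cutoff. With 1 library left out, the calls were lost of *sams-1* (adjusted p = 0.0148) and *tps-1* (adjusted p = 0.0315) without SKN-1t[NDNN] replicate 4.

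Cuticle genes were called in both directions, beside 6.51% up and 3.75% down among all genes. Of the tested *col* collagen genes 10 rose and 32, or 26.9% of them, fell, with a median log2 fold change of -1.13. The number that fell depended on the samples: it was 13 without pairing, and with pairing it was 1 without SKN-1t[NDNN] replicate 4 or wild type replicate 4, 8 without wild type replicate 1, 10 without SKN-1t[NDNN] replicate 1 or 2, 20 without wild type replicate 2 and 54 without SKN-1t[NDNN] replicate 3 or wild type replicate 3. *col-176* was at 151, 164, 87.4 and 105 CPM in SKN-1t[NDNN] animals, against 20.3, 9.17, 7.34 and 10.7 CPM in the wild type (log2 fold change 3.56, adjusted p = 0.000478), and *col-98* at 859, 844, 322 and 354 CPM, against 97.1, 42.6, 36.6 and 49.4 CPM in the wild type (log2 fold change 3.44, adjusted p = 0.000773). *col-81* was at 1.62, 0.676, 123 and 5.42 CPM in SKN-1t[NDNN] animals, against 93.6, 383, 1262 and 671 CPM in the wild type, where replicate 3 of SKN-1t[NDNN] exceeded replicate 1 of the wild type. It was called down with pairing (log2 fold change -6.14, adjusted p = 0.00588) and not without it (adjusted p = 0.0806).

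Of 19 tested collagen genes that shape the body or the furrows of the cuticle, 8 rose and none fell, and 5 rose without SKN-1t[NDNN] replicate 4 or wild type replicate 4. The furrow collagen genes *dpy-3* and *dpy-8* rose by 2.97 and 2.95 on the log2 scale (adjusted p = 0.000933 and 0.000919). *dpy-17* was at 3.003, 6.05, 5.33 and 13.6 CPM in SKN-1t[NDNN] animals, against 0.457, 0.522, 0.626 and 0.456 CPM in the wild type (log2 fold change 3.67, adjusted p = 0.00129). Of 60 tested hedgehog- and patched-related genes, many of which act in epidermal and cuticle formation, 10 rose and 6 fell. *wrt-10*, a hedgehog-related gene, was at 456, 492, 279 and 319 CPM in SKN-1t[NDNN] animals, against 91.2, 45.9, 28.9 and 47.1 CPM in the wild type (log2 fold change 3.03, standard error 0.215, adjusted p = 0.000610). Among wild type samples *wrt-10*, *dpy-3* and *dpy-8* were highest in replicate 1, the one with the most RNA of moult markers and the least of vitellogenins. In the oocyte and eggshell list 2 of 23 rose, among them *egg-6*, whose product is a transmembrane leucine-rich repeat protein of epithelia (88.0 ± 19.6 CPM in SKN-1t[NDNN] animals and 20.4 ± 7.38 CPM in the wild type, log2 fold change 2.23, adjusted p = 0.00105). Calls lost with 1 library left out were those of *dpy-3* (adjusted p = 0.0103), *dpy-8* (adjusted p = 0.0103) and *egg-6* (adjusted p = 0.0106) without SKN-1t[NDNN] replicate 4.

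Among regulators, 19 of 187 tested nuclear hormone receptor genes rose and 5 fell (10.2% and 2.67%), against 6.51% and 3.75% of all genes. Most members did not rise: the median log2 fold change was -0.19, and 67 of the 187 had positive values. *nhr-265* was at 13.9, 12.9, 5.89 and 2.83 CPM in SKN-1t[NDNN] animals, against 0.748, 0.261, 0.167 and 0.228 CPM in the wild type (log2 fold change 4.70, adjusted p = 0.000610). Of 19 genes of bZIP factors, the class to which SKN-1 is related, *atf-8* and *atf-2* rose and *zip-3* fell. *atf-8* was at 43.7, 55.4, 29.2 and 35.3 CPM in SKN-1t[NDNN] animals, against 10.4, 5.999, 3.46 and 4.83 CPM in the wild type (log2 fold change 2.89, adjusted p = 0.000705). *zip-3*, a repressor in the mitochondrial stress response, averaged 35.6 ± 2.54 and 81.0 ± 11.1 CPM in these groups (log2 fold change -1.09, adjusted p = 0.00105, and 0.0104 without SKN-1t[NDNN] replicate 4, where it was not called). *atf-2* was lost there too (adjusted p = 0.0111).

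**Figure D5:**
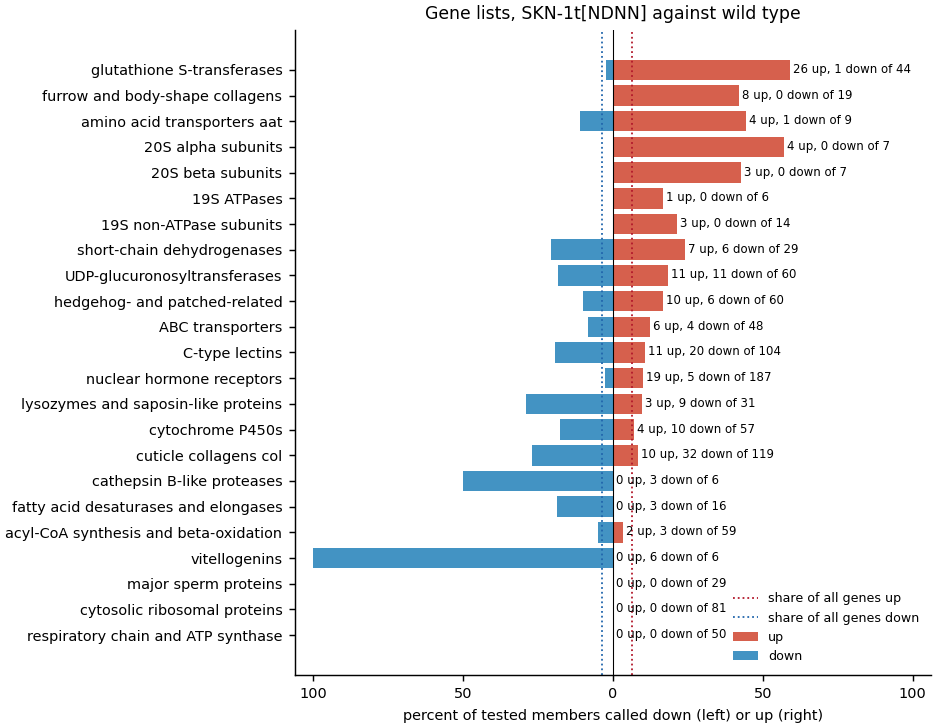
Share of the tested members of 23 gene lists called up (right) or down (left) in SKN-1t[NDNN] animals relative to the wild type, with counts beside the bars and dotted lines at the shares of all genes tested. Glutathione S-transferases reach the largest share up and all 6 vitellogenins are down, while major sperm proteins, ribosomal proteins and the respiratory chain have no call.

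Every class of gene symbols with at least 10 tested members was counted in the same way. In 2 classes at least 30% of members rose, the *gst* class with 25 of 39 and the *dpy* class, genes whose mutants are short and fat, with 10 of 24. In none did 30% fall. The share called up differed between chromosomes, which was not tested. The share of tested genes that rose was 8.59% on the X chromosome and 8.20% on chromosome V, against 4.53% on chromosome III and 4.68% on chromosome I. Genes called up also lay side by side. There were 13 runs of at least 4 neighbouring tested genes that all rose, with 56 genes in all, against 1 such run of genes that fell. The longest held 6 genes including *sdz-8*, on chromosome V from 11512309 to 11521554, with log2 fold changes from 1.20 to 7.16. A run of 4 genes that includes *gst-4* lies on chromosome IV from 10139380 to 10146225, with log2 fold changes from 1.28 to 5.91. Neighbours that overlap or are near copies could share reads, and the strand setting of the counting is not given in the sources used here.

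Outside the proteasome, few genes differed in level when SKN-1t[NDNN] animals were set against SKN-1t[NNNN] animals. In the fit of 16 samples 152 genes were higher in SKN-1t[NDNN] (1.02% of 14850) and 14 lower (0.0943%) at the wider cutoff, and 62 were higher and 2 lower at 2-fold. All 3 comparisons share the SKN-1t[NDNN] samples. B0416.4 (WBGene00015180, chromosome X, 9278953 to 9279947) was at 15.4, 14.5, 12.3 and 13.1 CPM in SKN-1t[NDNN] animals, against 0, 0, 0.138 and 0.0384 CPM in SKN-1t[NNNN] animals (log2 difference 8.10, standard error 0.465, adjusted p = 2.35e-06). *rgs-11*, which encodes a regulator of G protein signalling, averaged 4.20 ± 0.449 and 0.0828 ± 0.0355 CPM in these strains (log2 difference 5.58, adjusted p = 1.24e-05). W06D11.1 averaged 15.3 ± 1.001 and 0.505 ± 0.162 CPM (log2 difference 4.91, adjusted p = 6.62e-07), and F54F7.6 averaged 8.77 ± 0.599 and 0.290 ± 0.135 CPM (log2 difference 4.92, adjusted p = 6.62e-07). B0416.4, *rgs-11*, W06D11.1, F54F7.6 and the F-box gene *fbxa-170*, the 5 largest differences upward, all lie on the X chromosome, and all 5 were also up against the wild type, although *fbxa-170* was not called there without SKN-1t[NDNN] replicate 4 (adjusted p = 0.0157). The 2 genes lower at 2-fold were *asp-12*, an aspartyl protease gene at 54.1 ± 4.01 CPM in SKN-1t[NDNN] animals and 166 ± 52.8 CPM in those with SKN-1t[NNNN] (log2 difference -1.57, adjusted p = 0.00173), and *sdz-1* (log2 difference -1.59, adjusted p = 0.00600). With 1 library left out this count was 0 to 2, and 0 without SKN-1t[NDNN] replicate 2 or SKN-1t[NNNN] replicate 3. No glutathione S-transferase gene was higher, and *gst-34* was lower (22.2 ± 15.6 CPM in SKN-1t[NDNN] animals and 54.1 ± 22.8 CPM in those with SKN-1t[NNNN], log2 difference -1.57, adjusted p = 0.0198). For *gst-4* the difference was -0.21 (standard error 0.254, adjusted p = 0.764) and for *gcs-1* -0.54 (adjusted p = 0.0290). An adjusted p above the cutoff does not show that the levels are equal.

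Against SKN-1t[DNDD] animals, 370 genes were higher in SKN-1t[NDNN] (2.49% of 14850) and 1873 lower (12.6%) at the wider cutoff, and 56 were higher and 398 lower at 2-fold. At the wider cutoff 16 glutathione S-transferase genes were higher and none lower. Of 63 UDP-glucuronosyltransferase genes 8 were higher and 7 lower. The counts were 1 and 7 of 61 cytochrome P450 genes, and 4 and 5 of 48 ABC transporter genes. In these families the shares of lower genes were under the 12.6% of all genes. The share of higher genes was under 2.49% for cytochrome P450 genes and above it for UDP-glucuronosyltransferase and ABC transporter genes. *gst-4* averaged 2108 ± 243 CPM in SKN-1t[NDNN] animals and 919 ± 450.3 CPM in those with SKN-1t[DNDD] (log2 difference 1.27, standard error 0.260, adjusted p = 0.00856), *gcs-1* 498 ± 97.9 and 265 ± 66.9 CPM (log2 difference 0.92, adjusted p = 0.000730), and *clec-68* 30.3 ± 2.91 and 5.78 ± 2.48 CPM (log2 difference 2.43, adjusted p = 0.000168). Y50D4C.3 was the largest difference upward. It was at 19.7, 17.5, 16.6 and 17.6 CPM in SKN-1t[NDNN] animals, against 0.530, 0.169, 0.411 and 0.625 CPM in SKN-1t[DNDD] animals (log2 difference 5.36, adjusted p = 1.10e-07), and did not differ from the wild type by this test, where it averaged 19.3 ± 1.39 CPM (adjusted p = 0.869). The lower genes included genes of the germline, with all 29 major sperm protein genes, 36 of the other sperm genes, 19 of the oocyte and eggshell genes and 18 germline and meiosis genes lower at the wider cutoff. The summed major sperm protein genes were at 82.1, 70.1, 297 and 322 CPM in SKN-1t[NDNN] animals, against 313, 192, 989.6 and 1056 CPM in SKN-1t[DNDD] animals. Without pairing 19 genes were higher and 19 lower than in SKN-1t[DNDD] animals at 2-fold. With pairing and 1 library left out 18 to 53 were higher and 51 to 294 lower, with the fewest lower without SKN-1t[NDNN] replicate 4 (26 higher, 51 lower), SKN-1t[DNDD] replicate 3 (18 and 53) and SKN-1t[NDNN] replicate 1 (33 and 77). The count of lower genes was 94 without SKN-1t[NDNN] replicate 3, 102 without SKN-1t[NDNN] replicate 2, 109 without SKN-1t[DNDD] replicate 4 and 118 without SKN-1t[DNDD] replicate 1, and the part of stage in this comparison was not tested.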

How the data were processed

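RNA of whole L4 animals from 16 samples was sequenced as stranded, paired 50-base reads, and the 8 SKN-1t[NDNN] and wild type samples make up the main comparison. The authors aligned reads with STAR 2.7.7a to WBcel235 and deposited raw counts per gene, one column per sample; the gene length they list was not used. All genes and coordinates are named from the table and from the WBcel235 annotation, which holds 19066 of the 19122 identifiers.

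Counts were analysed here with R 4.3.3, edgeR 4.0.16 (filterByExpr at its minimum count, 10, and minimum total, 15; TMM; estimateDisp, glmQLFit with legacy quasi-dispersions, glmQLFTest, Benjamini-Hochberg adjustment over all genes tested), DESeq2 1.42.0 and Python 3.11.15. The replicate number was a block, since the 4 same-numbered pairs of samples correlated in their deviations from the group means (r = 0.29 to 0.47, each above 0.1). The mean for different numbers, -0.12, is no separate check, since deviations from a mean cancel within each group. Different numbers within replicates 1 and 2, or within 3 and 4, also correlated (r = 0.16 to 0.39). Those between these sets were negative (r = -0.47 to -0.21). The numbers come from the sample labels and the study's methods name no block. Of the 8 samples 3 correlated best with their own number, so the numbers are not shown to pair single samples. Standard errors are the log2 fold change divided by the root of F. Replicates differed by more than counting noise (chi-square per degree of freedom 21.3 to 121), and none were counted as 1 sample; intervals on ratios cover counting error only. SKN-1t[NNNN] and SKN-1t[DNDD] were compared in a fit of all 16 samples. Fits were tested on simulated data.

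Genes were named by a rule: the 10 largest changes each way with a mean of at least 1 CPM and no overlap between groups, up to 3 called each way in each gene list, the proteasome subunits, *skn-1*, *wdr-23*, *gst-4*, *gcs-1*, *unc-119*, *png-1* and *ddi-1*, the 5 largest differences from each other strain, and the 5 largest gains and losses in CPM. The members and the lists were chosen with earlier results of these data known. Alternatives were no block, RLE and upper-quartile scaling, DESeq2, no filter or at least 10 counts in every sample, newer quasi-dispersions, a fit of all 16 samples, a covariate for replicates 1 and 2 against 3 and 4, glmTreat, the wider cutoff and leaving out each sample. Leaving out both libraries numbered 3, and each sample without the block, were added after the data were seen.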

Additional observations from a re-analysis of the deposited data

Results flagged for a closer look

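Among the genes named here, each group of 4 samples was searched for a sample that lies far from the other 3 (Dixon's criterion at the 95% level). This singled out 24 of 310 sets, where chance gives about 1 in 20, and 11 of the 24 were SKN-1t[NDNN] replicate 3. That sample was high for the adult and stage-linked genes *col-19* at 56.1 CPM (the others 0.225 to 3.03 CPM), *col-7* at 6.09 CPM (the others 0 to 0.133 CPM), *col-81* at 123 CPM (the others 0.676 to 5.42 CPM), *grd-6* at 57.1 CPM (the others 6.48 to 14.8 CPM), *vit-2* at 219.7 CPM (the others 9.56 to 27.5 CPM), *vit-4* at 3.77 CPM (the others 0.0322 to 0.199 CPM) and *vit-5* at 39.3 CPM (the others 0.0675 to 0.731 CPM). It was low for *nas-37* at 132 CPM (the others 178 to 184 CPM), *rpn-2* at 323 CPM (the others 406 to 422 CPM), *rpn-6.1* at 167 CPM (the others 199.7 to 205 CPM) and *rpt-5* at 288 CPM (the others 348 to 353 CPM).

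SKN-1t[NDNN] replicate 1 was high for *pbs-3* at 408 CPM (the others 369 to 375 CPM) and *prdx-2* at 2204 CPM (the others 2085 to 2104 CPM). SKN-1t[NDNN] replicate 1 was low for *ptr-22* at 4.18 CPM (the others 5.75 to 6.05 CPM). SKN-1t[NDNN] replicate 2 was high for *asp-12* at 60.0 CPM (the others 51.3 to 52.6 CPM). SKN-1t[NDNN] replicate 4 was high for *clec-10* at 11.6 CPM (the others 4.12 to 5.09 CPM). Wild type replicate 1 was high for *fbxa-170* at 0.249 CPM (the others 0.0417 to 0.0761 CPM) and *nhr-265* at 0.748 CPM (the others 0.167 to 0.261 CPM). Wild type replicate 2 was high for *gst-34* at 0.0435 CPM (the others at 0). Wild type replicate 3 was high for F11A5.18 at 0.0835 CPM (the others 0.0380 to 0.0435 CPM), *alh-6* at 56.6 CPM (the others 50.4 to 51.5 CPM) and *ugt-35* at 0.0417 CPM (the others at 0). Wild type replicate 3 was low for *pas-2* at 225 CPM (the others 250.2 to 255 CPM). Wild type replicate 4 was high for Y75B12A.2 at 0.0380 CPM (the others at 0). For *gst-34*, *ugt-35* and Y75B12A.2 that wild type value is a single read. Without both libraries numbered 3, 883 genes were up and 707 down against the wild type.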

How the results depend on the processing

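Against the wild type (932 up, 536 down), the counts stayed within 1.5 times without the block (980 up, 478 down; 872 and 434 genes were called in both fits), with RLE (876 and 626) or upper-quartile scaling (968 and 544), with no filter or at least 10 counts in every sample, with newer quasi-dispersions, with the covariate for replicates 1 and 2 against 3 and 4, and without both libraries numbered 3. RLE scaling moved the median log2 fold change of all genes to 0.016. They moved beyond 1.5 times for genes down with DESeq2 (877) and in the fit of 16 samples (880), for both directions with glmTreat against 2-fold (266 up, 72 down) and at the wider cutoff (2149 and 1495), and with 1 library left out (263 to 886 up and 117 to 718 down, or 649 to 1029 and 370 to 692 without the block). Compared with SKN-1t[NNNN] (62 higher, 2 lower at 2-fold), 7 were lower with DESeq2, 1 with at least 10 counts in every sample and 6 in the fit of 8 samples, with 152 and 14 at the wider cutoff and 42 to 63 higher and 0 to 2 lower with 1 library left out. Compared with SKN-1t[DNDD] (56 higher, 398 lower), there were 19 and 19 without the block, 1155 lower with DESeq2, 900 lower in the fit of 8 samples, 370 and 1873 at the wider cutoff, and 18 to 53 higher and 51 to 294 lower with 1 library left out. The causes were not tested.

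Of 125 called genes among those named, 54 kept their call under every alternative that tested them. The call of 71 was lost in at least 1, and none reversed. Up to 17 alternatives were run on single genes. The filter of at least 10 counts in every sample kept 130 of the 155 genes checked, so the others, among them *gst-30* and *spp-9*, were not tested under it. Of 34 proteasome genes 28 to 32, and of the glutathione S-transferase genes 17 to 26, were up under the alternatives at their cutoffs in the report; 17 is the count with at least 10 counts in every sample, where fewer are tested. The pairing ended the call of *vit-5*, *col-19*, *col-7*, *col-81*, *grd-6* and *rpn-8* when left out. The 2-fold calls of *pas-3*, *pbs-4*, *pbs-6*, *rpn-7* and *rpn-8* were lost with RLE scaling, and with DESeq2, at log2 fold changes of 0.95 to 0.99. Depth limits the ratios of *gst-34*, *ugt-35* and Y75B12A.2, which rest on 1 wild type read each.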

Other observations

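Of the 12 protein-coding genes of the mitochondrial genome, *nduo-5*, which encodes a subunit of complex I, was singled out after its values were seen. It was at 1535, 1484, 1342 and 1337 CPM in SKN-1t[NDNN] animals, against 816, 661, 654 and 702 CPM in the wild type (log2 fold change 1.10, standard error 0.1001, adjusted p = 0.00104, edgeR quasi-likelihood test). None of the other 11 passed either cutoff, and the median log2 fold change of the 12 was -0.19. In the fit of 16 samples it was also higher in SKN-1t[NDNN] animals than in those with SKN-1t[NNNN] (1424 ± 100.2 and 712 ± 67.6 CPM, log2 difference 1.00, adjusted p = 1.24e-05) or SKN-1t[DNDD] (933 ± 79.2 CPM, log2 difference 0.61, adjusted p = 0.000635). It lost its call in 3 of 8 fits with 1 library left out, with an adjusted p of up to 0.0107 (without SKN-1t[NDNN] replicate 4) or a log2 fold change as low as 0.99 (without wild type replicate 2).

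The shares of all genes tested that rose and fell, 6.51% and 3.75%, stand beside counts in other families. Of 15 tested insulin genes 4 rose and 1 fell (26.7% and 6.67%), and of 47 genes of secreted transthyretin-related proteins 2 rose and 5 fell (4.26% and 10.6%). Of 91 neuropeptide genes 2 rose and 1 fell (2.20% and 1.10%), both under the shares of all genes. Of 19 tested *pals* genes, a family of the response to intracellular pathogens, 1 rose and 3 fell, and 12 of the 24 tested in the fit of 16 samples were lower than in SKN-1t[DNDD] animals at the wider cutoff.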
